A study of Mus musculus with 101 samples.

Results

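DNA copy number, measured by sequencing tumour DNA at low coverage, was compared between 9 epithelial-rich mouse mammary tumours of genotype KB1(L1363P)P and 30 of genotype KB1P. The tumours were chosen from the labels alone, as those of either genotype with a stated epithelial component of at least 75%, which kept 39 of the 98 tumours in a series of 101 samples (the other 3 samples are spleens). Left out by this rule were 15 other KB1(L1363P)P tumours and 1 other KB1P tumour. In the names of these conditional models, the K stands for a Cre recombinase driven by the keratin 14 promoter, which is active in epithelial cells of the mammary gland and the skin. The P stands for Trp53, which that recombinase deletes, and B1 for Brca1, which it deletes as well in KB1P. Both groups therefore share the loss of Trp53. They differ in Brca1, which is lost in KB1P and carries the missense variant p.L1363P in the coiled-coil domain in KB1(L1363P)P. The labels give no age, strain or number of alleles with the variant, and they tie no tumour to an animal, so the tests read the spread between tumours and nothing else.

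Brca1 acts in the repair of broken DNA by homologous recombination. Through its coiled-coil domain it binds Palb2, which brings in Brca2. Tumours that lack this pathway rejoin breaks by other routes and are known for genomes with many gains, losses and internal junctions. A widely used count of such junctions is that of large-scale transitions, which takes only those where a long segment meets another long one.

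Histology stayed unequal between the groups after the choice by epithelial content. Of the 9 KB1(L1363P)P tumours, 3 were adenocarcinomas with a purely epithelial label (tumours 2, 5 and 6). The other 6 were carcinosarcomas, which mix epithelial and spindle-shaped components, with epithelial shares of 98%, 85%, 95%, 85%, 90% and 75% in tumours 1, 3, 4, 7, 8 and 9. Of the 30 KB1P tumours, 29 were adenocarcinomas and 1 was a carcinosarcoma with an epithelial share of 80% (tumour 5). Library series, taken from the number or the letter D that opens each sample's description, was unequal too. Series 5289 held KB1(L1363P)P tumours 1 to 5 and 9 KB1P tumours, and series 5490 held KB1(L1363P)P tumours 6 to 9 and no KB1P tumour. The remaining 21 KB1P tumours came from 4 series without a KB1(L1363P)P tumour. The description of KB1P tumour 8 names L1363P, against its genotype label, and 10 KB1P tumours are titled KB1PM, a name the labels do not explain. All 11 were counted as KB1P.

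For each of 43513 genes a tumour has a whole-number copy score and a log2 ratio before and after segmentation. The segmented ratio is called the segment value here, and 0 stands for the neutral state. Copy scores above 2 are gain calls, which begin at a segment value of 0.32. Scores below 2 are loss calls, which begin at -0.42. Read depth is unknown. The noise of the log2 ratio between neighbouring genes was 0.0679 to 0.0916 in the KB1(L1363P)P tumours and 0.0689 to 0.146 in the KB1P tumours. It was 0.0520 to 0.0548 in the 3 spleens, in which no gene was called altered and no breakpoint was found. In bulk DNA a smaller share of tumour cells and a smaller change per cell cannot be told apart.

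KB1(L1363P)P tumours had fewer altered genes than KB1P tumours. The share of genes with a gain or loss call was 3.53%, 44.6%, 12.7%, 16.7%, 14.5%, 11.8%, 12.5%, 11.2% and 5.59% in KB1(L1363P)P tumours 1 to 9, and ran from 5.35% over a median of 35.5% to 65.1% in KB1P. Tumour 2, an adenocarcinoma, stood inside the upper part of the KB1P range, and the other 8 tumours lay below the KB1P median. The means were 14.8% ± 11.9 (SD, n = 9) and 37.6% ± 17.2 (SD, n = 30), a difference of -22.8 points (two-sided exact permutation p = 7.07e-04, adjusted p = 0.00212 over the 6 genome-wide measures). With only segment values of more than 0.5 in size counted as altered, the difference was -3.11 points (exact permutation adjusted p = 0.443), and that in the lost share was 1.97 points, the other way (exact permutation adjusted p = 0.570).

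Fewer gains made up most of this difference. Gained genes were 0.285%, 5.99%, 2.75%, 6.48%, 1.91%, 2.26%, 5.06%, 0.172% and 2.28% of all genes in KB1(L1363P)P tumours 1 to 9. In KB1P the gained share ran from 2.5% over a median of 14.8% to 49.8%. No KB1(L1363P)P tumour reached the KB1P median. The means of 3.02% ± 2.32 (SD, n = 9) and 18.8% ± 13.98 (SD, n = 30) differed by -15.7 points (exact permutation adjusted p = 0.00454). The lost share was 3.25% to 38.6% in KB1(L1363P)P, with a median of 9.97%, and 1.16% to 43.0% in KB1P, with a median of 16.6%. The groups overlapped over nearly the whole range. The means of 11.8% ± 10.6 (SD, n = 9) and 18.9% ± 11.4 (SD, n = 30) differed by -7.09 points, which did not pass the test (exact permutation adjusted p = 0.126). Without tumour 2 the difference in lost share was -10.4 points (exact permutation adjusted p = 0.0188).

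Breakpoints, the changes of segment value between neighbouring genes of a chromosome, were also fewer in KB1(L1363P)P. The 9 tumours had 25, 63, 46, 75, 81, 108, 85, 56 and 41 breakpoints, and the KB1P tumours had 23 to 320 with a median of 119. All 9 tumours lay below that median, although the KB1P range reached lower than any of them. The means of 64.4 ± 25.6 (SD, n = 9) and 148 ± 91.3 (SD, n = 30) differed by -83.1 (exact permutation adjusted p = 0.016).

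Large-scale transitions, counted between segments of at least 10 Mb, showed the difference with the smallest p of the 6 measures. KB1(L1363P)P tumours 1 to 9 had 5, 8, 14, 7, 12, 9, 6, 13 and 5 of them. KB1P tumours had 4 to 29 with a median of 17.5. The lowest KB1P count belonged to its only carcinosarcoma, which also had the lowest altered share and the fewest breakpoints of the KB1P tumours. The means of 8.78 ± 3.46 (SD, n = 9) and 18.1 ± 7.05 (SD, n = 30) differed by -9.32 (exact permutation p = 5.24e-04, adjusted p = 0.00212). Changes that took in at least 90% of a chromosome's genes averaged 1.11 ± 1.36 (SD, n = 9) and 1.80 ± 1.79 (SD, n = 30) per tumour, a difference of -0.689 that did not pass (exact permutation adjusted p = 0.326).

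**Figure D1:**
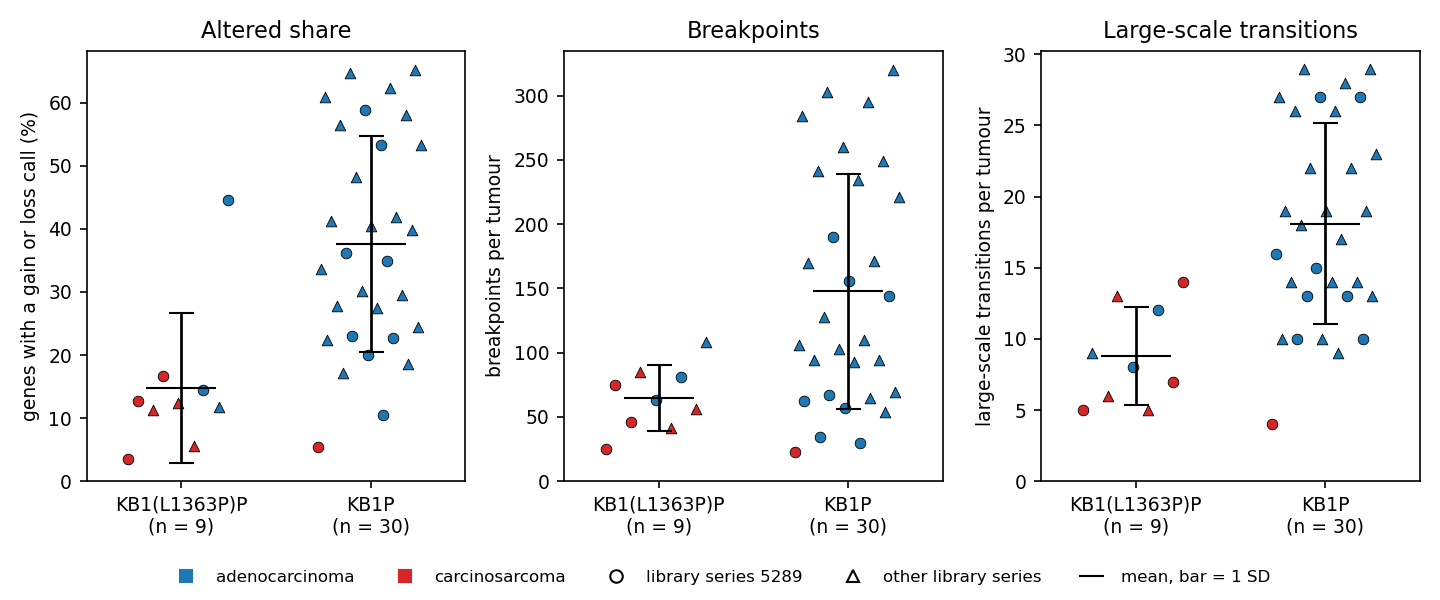
Altered share (percent of genes with a gain or loss call), breakpoints and large-scale transitions of each tumour, with the mean and a bar of 1 SD for the 9 KB1(L1363P)P and 30 KB1P tumours; colour gives the histology and marker shape the library series. The KB1(L1363P)P means of 14.8%, 64.4 and 8.78 lie below the KB1P means of 37.6%, 148 and 18.1, while single tumours of the groups overlap in every panel.

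None of these differences passed where histology or library series was held fixed. Those in altered share, gained share, breakpoints and large-scale transitions were all smaller there, except that the gained share still differed by -15.9 points among adenocarcinomas (exact permutation adjusted p = 0.135). Among adenocarcinomas, KB1(L1363P)P tumours had an altered share of 23.6% ± 18.2 (SD, n = 3) and KB1P tumours one of 38.7% ± 16.4 (SD, n = 29), a difference of -15.1 points (exact permutation adjusted p = 0.296). Large-scale transitions averaged 9.67 ± 2.08 (SD, n = 3) and 18.6 ± 6.65 (SD, n = 29) there (difference -8.92, exact permutation adjusted p = 0.135). Within library series 5289 the altered share was 18.4% ± 15.5 (SD, n = 5) and 29.4% ± 18.1 (SD, n = 9), a difference of -11.0 points (exact permutation adjusted p = 0.548). Within that series the gained share differed by -8.17 points (exact permutation adjusted p = 0.435) and breakpoints by -26.8 (exact permutation adjusted p = 0.603). Large-scale transitions there averaged 9.20 ± 3.70 (SD, n = 5) and 15 ± 7.65 (SD, n = 9), a difference of -5.80 (exact permutation adjusted p = 0.435). KB1P tumours had altered shares of 41.5% ± 15.9 (SD, n = 11) in series D and 42.1% ± 16.1 (SD, n = 8) in series 2766, and the single tumours of series 2956 and 3081 were at 53.3% and 17.2%. The KB1(L1363P)P tumours of series 5490 had an altered share of 10.3% ± 3.16 (SD, n = 4), with no KB1P tumour beside them. The part of library series and histology in the pooled differences was not tested beyond these values. With tumours of at least 90% epithelial content, 6 KB1(L1363P)P and 29 KB1P, the altered share differed by -21.7 points (exact permutation adjusted p = 0.0134) and large-scale transitions by -9.59 (exact permutation adjusted p = 0.00824).

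Epithelial-rich tumours of the other models place these values. In KP tumours, which lack Trp53 and keep normal Brca1, the altered share was 16.4% ± 9.09 (SD, n = 8) and the count of large-scale transitions was 5.13 ± 3.18 (SD, n = 8). In KB2P tumours, which lack Brca2 and Trp53, the altered share was 37.0% ± 14.3 (SD, n = 25) and the count of large-scale transitions was 21.0 ± 6.39 (SD, n = 25). The KB1(L1363P)P means of both measures lay nearer to KP than to KB2P, a description that was not tested. All 8 KP tumours came from library series 5289 and 5490, as did the KB1(L1363P)P tumours. All 25 KB2P tumours came from other series, so genotype and library series cannot be told apart here.

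Chromosome 12 was lost more, and chromosome 6 was gained less, in KB1(L1363P)P than in KB1P. These were the 2 of 20 chromosomes whose mean segment value passed the exact permutation test. The mean of chromosome 12 was -0.57, -0.39, -0.46, -0.91, -0.49, -0.79, -0.87, -0.85 and -0.37 in KB1(L1363P)P tumours 1 to 9, and -0.86 to 0.49 with a median of -0.18 in KB1P. All 9 tumours were below the KB1P median, and none had a chromosome 12 near the neutral state. At least 55.1% of the chromosome's genes had a loss call in each of the 9 tumours, and the mean lost share of the chromosome was 80.6% against 40.2% in KB1P. Loss calls covered most of the chromosome in 9 of 9 against 11 of 30 tumours, and at least 90% of it in 3 against 7. The group means of -0.63 ± 0.22 (SD, n = 9) and -0.21 ± 0.38 (SD, n = 30) differed by -0.42 (exact permutation adjusted p = 0.0355 over 20 chromosomes). In KP epithelial-rich tumours the mean of chromosome 12 was -0.57 ± 0.21 (SD, n = 8).

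On chromosome 6 the mean segment value was -0.01, 0.23, 0.14, 0.00, 0.24, -0.01, -0.21, 0.04 and 0.01 in KB1(L1363P)P tumours 1 to 9, against -0.03 to 0.85 with a median of 0.33 in KB1P. The KB1(L1363P)P values centred near the neutral state and stayed below the KB1P median in all 9. Gain calls covered most of this chromosome in 0 of 9 and 13 of 30 tumours, and at least 90% of it in 0 and 8. The group means of 0.05 ± 0.14 (SD, n = 9) and 0.34 ± 0.23 (SD, n = 30) differed by -0.29 (exact permutation adjusted p = 0.0171). Neither chromosome passed within library series 5289, where the differences were -0.25 for chromosome 12 and -0.15 for chromosome 6 (exact permutation adjusted p = 0.685 for both). Neither passed among adenocarcinomas, where they were -0.33 and -0.20 (exact permutation adjusted p = 0.368 for both), nor without series 5490, where they were -0.35 and -0.22 (exact permutation adjusted p = 0.418 for both). At an epithelial content of at least 90% they were -0.44 and -0.27 and missed the threshold (exact permutation adjusted p = 0.0998 for both). Chromosome 12 also missed the threshold without KB1(L1363P)P tumour 4, 6, 7 or 8 (exact permutation adjusted p = 0.0982, 0.0786, 0.0929 and 0.0895), and chromosome 6 without tumour 7 (exact permutation adjusted p = 0.0709). Among the other 18 chromosomes, the smallest p belonged to chromosome 1, with means of 0.03 and 0.17 (exact permutation adjusted p = 0.154).

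**Figure D2:**
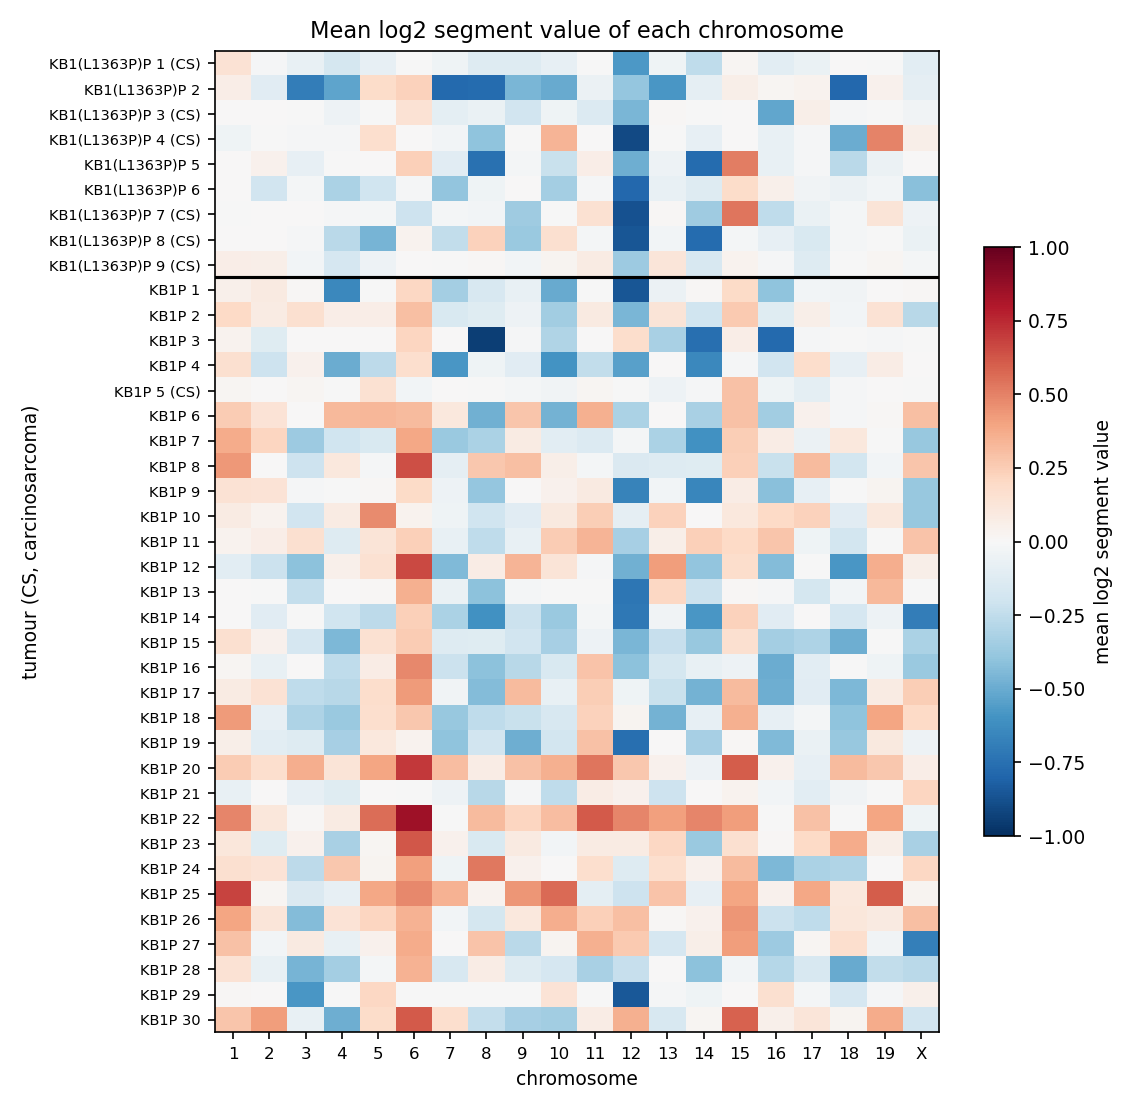
Mean log2 segment value of the genes of each chromosome (columns) in each tumour (rows), with the 9 KB1(L1363P)P tumours above the black line and the 30 KB1P tumours below it; CS marks carcinosarcomas, and the colour scale ends at -1 and 1. Chromosome 12 is below 0 in all 9 KB1(L1363P)P tumours (-0.91 to -0.37), and chromosome 6 is above 0 in most KB1P tumours (median 0.33).

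Gene by gene, limma on the segment values called 1154 of 43513 genes at an adjusted p under 0.05, which is 2.65% of the genes tested. Of these, 47 were higher (0.108%) and 1107 lower (2.54%) in KB1(L1363P)P. Leaving out 1 tumour gave 526 called genes without KB1(L1363P)P tumour 7, 1872 without tumour 2, and 1914, 1894, 2052 and 1976 without KB1P tumour 1, 14, 19 or 29. With segment values limited to -1 to 1, 0 of the genes were called higher by limma. All called genes with a known position lay on chromosomes 6 and 12, in long runs that share segments, so they are not independent events. By limma no gene was called among adenocarcinomas only, within library series 5289, at an epithelial content of at least 90% or without library series 5490. Fisher's exact test on the gain and loss calls of each gene called 0 of 87026 tests, a share of 0%, with 4570 at an unadjusted p under 0.05.

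The 32 placed genes that were higher formed a single run of 3.39 Mb on proximal chromosome 6, chr6:16237625-19624715 (mm10), around the receptor gene Met. Another run on the same chromosome went the other way. From chr6:62820102-115282626, over 52.5 Mb and 576 placed genes, the mean was -0.14 in KB1(L1363P)P and 0.38 in KB1P. Averaged over this distal run, the segment value was -0.07, 0.21, -0.67, 0.00, 0.25, -0.01, -0.81, -0.03 and -0.10 in KB1(L1363P)P tumours 1 to 9, and -0.03 to 0.92 with a median of 0.35 in KB1P. None of the 9 tumours reached the level of a gain call, which 16 of the 30 KB1P tumours did. Tumours 3 and 7 were at the level of a loss call there, as was no KB1P tumour.

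Lower genes on chromosome 12 with a position numbered 191, in 4 runs. The longest, chr12:90399690-104394259, spanned 13.99 Mb and 150 placed genes, with a mean difference of -0.55. It was at the level of a loss call in 8 of 9 KB1(L1363P)P and 12 of 30 KB1P tumours. A shorter run, chr12:71577931-73778185, was at -0.75, -0.77, -0.58, -0.91, -0.45, -0.89, -0.87, -0.85 and -0.64 in KB1(L1363P)P tumours 1 to 9. It was at -0.93 to 0.33 with a median of -0.27 in KB1P. All 9 KB1(L1363P)P tumours were at the level of a loss call in this run, against 13 of the 30 KB1P tumours. A further 15 higher and 340 lower called genes could not be placed.

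Met encodes the receptor of hepatocyte growth factor, a receptor tyrosine kinase that drives growth and motility of epithelial cells. Its segment value was 5.44, 0.01, 3.25, 0.00, 0.25, -0.02, 4.22, 5.32 and 5.41 in KB1(L1363P)P tumours 1 to 9, and -0.10 to 0.85 with a median of 0.11 in KB1P. Tumours 1, 3, 7, 8 and 9, all carcinosarcomas, stood far above every KB1P tumour. The other 4, which include all 3 adenocarcinomas, lay within the KB1P range. The deposited copy scores of Met in the 5 tumours were 87, 19, 37, 80 and 85. The fitted difference was 2.45 (SE 0.41, limma adjusted p = 0.0011), and gain calls of any height were made in 5 of 9 and 10 of 30 tumours. Among adenocarcinomas the difference was -0.13 (limma adjusted p = 0.781). It was 1.57 within library series 5289 (limma adjusted p = 0.868) and 1.59 without series 5490 (limma adjusted p = 0.129), which held tumours 7, 8 and 9. With segment values limited to -1 to 1 it was 0.38 and missed the threshold (limma adjusted p = 0.0528), as did 1.63 at an epithelial content of at least 90% (limma adjusted p = 0.230). Averaging tumours 8 and 9, titled 54.1 and 54.2, gave 2.12 (limma adjusted p = 0.00221).

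High-level gain, a segment value of at least 1, was thus found at Met in 5 of the 6 KB1(L1363P)P carcinosarcomas and 0 of the 30 KB1P tumours, whose only carcinosarcoma had a Met value of 0.03. Among the other epithelial-rich models it was found in 4 of 8 KP tumours, namely both carcinosarcomas and 2 of 6 adenocarcinomas, and in 0 of 25 KB2P tumours, all adenocarcinomas. These counts follow histology as well as genotype, and with 1 KB1P carcinosarcoma the 2 cannot be told apart. Yap1, a coactivator of the Hippo pathway, was at high-level gain in 0 of 9 KB1(L1363P)P tumours (-0.36 to 0.05), 1 of 30 KB1P tumours (2.89), 2 of 8 KP and 1 of 25 KB2P tumours.

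The gained intervals at Met differed in length and outline between the 5 tumours. In tumour 1 the interval was chr6:11900372-19777551 (7.88 Mb), in tumour 3 chr6:16237625-31337395 (15.1 Mb), in tumour 7 chr6:16524755-19777551 (3.25 Mb), in tumour 8 chr6:14901349-19624715 (4.72 Mb) and in tumour 9 chr6:15720566-19319400 (3.60 Mb). They shared chr6:16524755-19319400, 28 placed genes of which 13 are protein-coding. The 13 are Tfec, Tes, Cav2, Cav1, Met, Capza2, St7, Wnt2, Asz1, Cftr, Cttnbp2, Lsm8 and Ankrd7. Among them Cav1 and Cav2 form the coat of caveolae, Wnt2 is a secreted Wnt ligand, Cftr is a chloride channel and St7 is a candidate tumour suppressor.

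Steps inside the intervals set Met apart from some of its neighbours. In tumour 1 the segment value was 1.65 from Tfec to Cav1 and 5.44 from Met to Ankrd7. In tumour 3 it was 3.25 from Tfec to Asz1, 1.85 at Cftr and 1.38 from Cttnbp2 to Ankrd7. Tumour 7 had 4.22 from Tfec to Met, 2.59 from Capza2 to Asz1 and 4.53 from Cftr to Ankrd7. Tumours 8 and 9 were flat at 5.32 and 5.41 from Tes to Ankrd7, with lower values of 4.56 and 3.08 at Tfec. Met was therefore at the highest value of the shared protein-coding genes in 4 of the 5 tumours, the exception being tumour 7. Capza2, St7, Wnt2 and Asz1 shared that value with Met in the same 4 tumours. The genes from Cftr to Ankrd7 were at the highest value in tumours 1, 7, 8 and 9. This count thus does not single out Met. Tumours 8 and 9 had different interval ends and correlated at r = 0.597 over all genes, while other pairs of KB1(L1363P)P tumours ran from -0.0098 to 0.80. Pairs among tumours 1, 7, 8 and 9, all with high Met, ran from 0.54 to 0.80. Pairs of tumour 3 with these ran from 0.25 to 0.47. The r of tumours 8 and 9 therefore does not tell whether they are related.

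**Figure D3:**
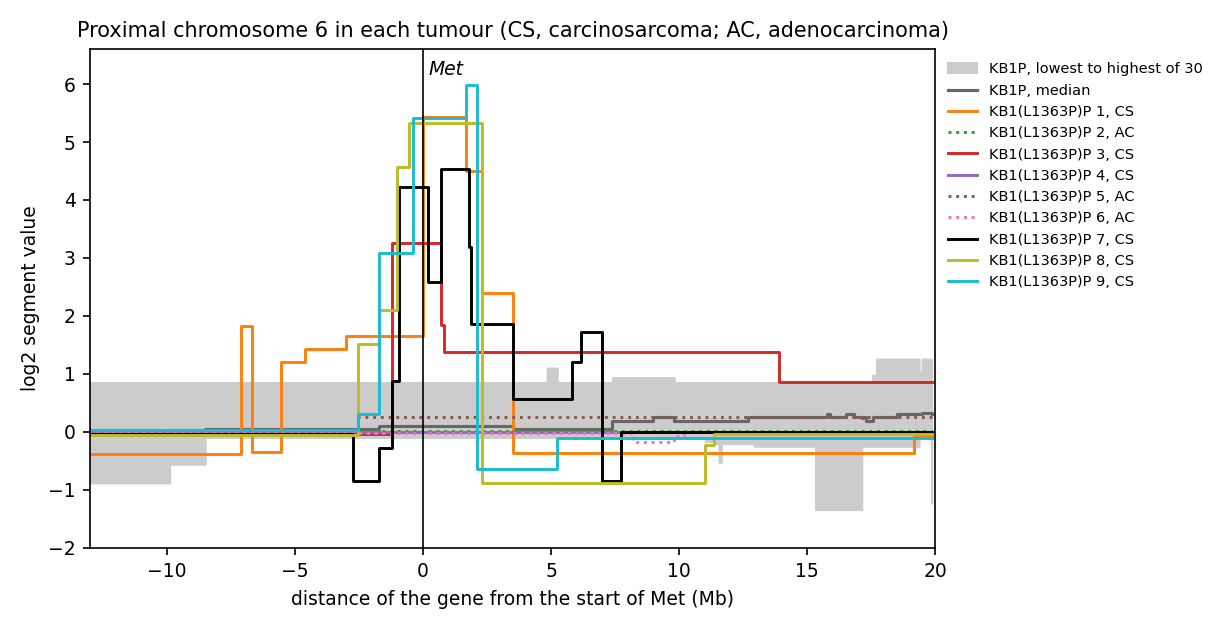
Log2 segment value of each gene against its distance from the start of Met in Mb, as stepped lines for the 9 KB1(L1363P)P tumours (solid, carcinosarcoma; dotted, adenocarcinoma), with the KB1P median as a grey line and the lowest to highest of the 30 KB1P tumours as a grey band. Tumours 1, 3, 7, 8 and 9 reach 3.25 to 5.44 at Met, and the KB1P band stays at or below 0.85 there.

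Every KB1(L1363P)P tumour held at least 1 high-level gain, including those with few other changes. The highest segment value was 5.44, 1.71, 3.25, 3.90, 2.62, 3.38, 4.53, 5.32 and 5.98 in KB1(L1363P)P tumours 1 to 9, and 0.52 to 4.34 with a median of 1.60 in KB1P. At least 1 gene was at high-level gain in 9 of 9 against 21 of 30 tumours, and a value of at least 3 was reached in 7 of 9 against 4 of 30. The carcinosarcomas with high Met, tumours 1, 3, 7, 8 and 9, were among those 7. In KP epithelial-rich tumours the highest value ran from 2.56 to 5.04 (n = 8), with altered shares of 4.33% to 29.8%. Tall gains beside few other changes were thus not particular to KB1(L1363P)P. In KB2P epithelial-rich tumours the highest value ran from 0.77 to 4.35 (n = 25). Intervals of high-level gain numbered 35 in KB1(L1363P)P, a median of 4 per tumour (1 to 9). In KB1P they numbered 218, a median of 2.5 per tumour (0 to 29). Median lengths were 3.26 Mb in KB1(L1363P)P and 1.35 Mb in KB1P. The share of genes at high-level gain ran from 0.113% to 1.32% in KB1(L1363P)P and from 0% to 3.72% in KB1P. Deep loss, a segment value of at most -1, was found as 2 intervals in 2 of 9 KB1(L1363P)P tumours and 66 intervals in 20 of 30 KB1P tumours. These counts were not tested.

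**Figure D4:**
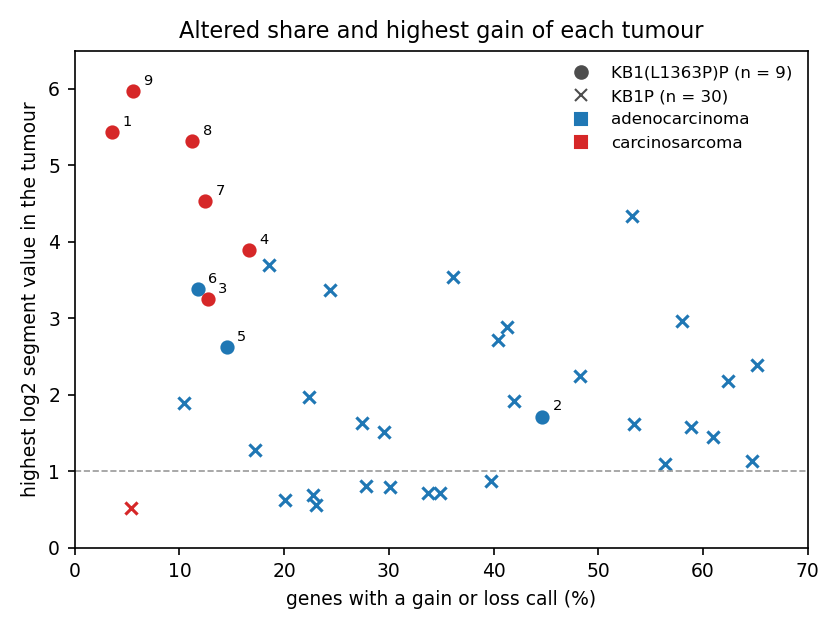
Highest log2 segment value of each tumour against its altered share in percent, for the 9 KB1(L1363P)P tumours (numbered circles) and the 30 KB1P tumours (crosses); the dashed line marks high-level gain. Tumours 1 and 9 pair the highest values, 5.44 and 5.98, with altered shares of 3.53% and 5.59%, and all 9 KB1(L1363P)P tumours lie above the line.

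In the 4 tumours without high Met the tall gains lay elsewhere. Carcinosarcoma 4 had 4 intervals within chr10:26965973-68279355, which peaked at 3.90. One of them, chr10:38820541-45486314, ended at Lin28b, whose protein blocks the maturation of let-7 microRNAs. Lin28b was at 2.74 in that tumour, and the other 8 tumours ran from -0.79 to 0.27. In KB1P the same gene ran from -0.60 to 2.18 and was at high-level gain in 3 of 30 tumours. Its group means did not differ beyond the spread (difference -0.13, SE 0.27, limma adjusted p = 0.863).

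Adenocarcinoma 5 had a gained interval of 41.0 Mb on chromosome 15, chr15:3217194-44235912, with values up to 2.62. It holds Stk3, a kinase at the head of the Hippo cascade, at 1.88. A separate interval, chr15:61699284-62260215, holds the transcription factor Myc and its non-coding neighbour Pvt1, both at 2.13. Myc was at 0.54 in tumour 7 and between -0.03 and 0.06 in the other 7 tumours. In KB1P it ran from -0.02 to 0.90 with a median of 0.32, and gain calls of Myc were made in 2 of 9 and 15 of 30 tumours. Adenocarcinoma 2 had lower gains on chromosomes 4, 10 and 13, the highest of them 1.71 at chr10:66740286-70599291. Part of that interval, chr10:66740286-68279355, was at high-level gain in tumours 2 and 4 and holds the candidate histone demethylase gene Jmjd1c and the chromatin factor gene Arid5b. Outside chromosome 6 it was the only stretch that 2 or more of the 9 tumours shared at that level.

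Adenocarcinoma 6 had gained intervals on chromosomes 16 and X, where it was the only KB1(L1363P)P tumour at high-level gain. These intervals carry 2 groups of microRNA genes, small RNAs that pair with target messages mainly through their seed, bases 2 to 8. On chromosome X, at chrX:52741693-57224042, the segment value of the group from Mir363 to Mir106a was 2.63, and the highest KB1P value there was 0.68. On chromosome 16 the group Mir99a, Mirlet7c-1 and Mir125b-2 was at 1.69 and Mir155 at 2.04, against a highest KB1P value of 0.34 for all 4. The chromosome X group is a relative of the miR-17-92 cluster, which is known for promoting growth in several cancers, whereas let-7c is known for restraining it. DNA copy number does not measure how much of these RNAs the tumour made. The mature sequences are from RefSeq (GRCm38.p6), printed 5′ to 3′ with the seed in capitals, and are shown because members of this tumour's gained intervals fall into families by seed.
mmu-miR-106a-5p: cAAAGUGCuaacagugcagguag
mmu-miR-20b-5p: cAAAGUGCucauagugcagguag
mmu-miR-18b-5p: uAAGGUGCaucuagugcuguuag
mmu-miR-19b-3p: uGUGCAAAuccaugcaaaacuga
mmu-miR-92a-3p: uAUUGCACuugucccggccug
mmu-miR-363-3p: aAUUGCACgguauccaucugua
mmu-let-7c-5p: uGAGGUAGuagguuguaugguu
mmu-miR-99a-5p: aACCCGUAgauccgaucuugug
mmu-miR-125b-5p: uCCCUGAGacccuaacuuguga
mmu-miR-351-5p: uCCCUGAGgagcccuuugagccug
mmu-miR-155-5p: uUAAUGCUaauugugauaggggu
The seed AAAGUGC is shared by miR-106a and miR-20b, AUUGCAC by miR-92a and miR-363, and CCCUGAG by miR-125b on chromosome 16 and miR-351 on chromosome X. Mir351 was also at 2.63, and 1 KB1P tumour had high-level gain of it, at 1.06. The same tumour had Brcc3, a subunit of the Brca1-A deubiquitinase complex, at 1.43 on chromosome X, where no KB1P tumour exceeded 0.71.

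Around Met the gained intervals carry another microRNA gene, Mir6370 at chr6:19555438-19555458. It lies beyond the shared stretch and was at 4.49, 1.38, 1.86 and 5.32 in tumours 1, 3, 7 and 8. Tumour 9, whose interval ended before it, did not have it at high-level gain. The gained interval of tumour 3 ran on to take in the microRNA genes Mir183, Mir96 and Mir182, all at 1.38, and further intervals of that tumour held Braf, a kinase of the MAP kinase cascade, at 1.04 and the drug efflux transporter Abcg2 at 1.16. The mature sequences from these 2 stretches, again with the seed in capitals, are as follows.
mmu-miR-6370: gCAGGAACagcaaaggggaag
mmu-miR-183-5p: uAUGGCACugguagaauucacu
mmu-miR-96-5p: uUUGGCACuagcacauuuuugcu
mmu-miR-182-5p: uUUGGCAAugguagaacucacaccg

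In several KB1(L1363P)P tumours a single chromosome held a large share of the breakpoints. The chromosome with most of them held 44.0% of all breakpoints in tumour 1, 60.9% in tumour 3, 31.7% in tumour 9 and 29.4% in tumour 7, in each case chromosome 6. In tumour 4 it was chromosome 10, with 44 of 75 breakpoints (58.7%). In tumours 5 and 6 it was chromosomes 15 and 16, with 24 of 81 and 25 of 108. Tumour 2 had 22.2% on chromosome 10, and tumour 8, which had high Met, had 16.1% on chromosome 10 and 12.5% on chromosome 6. Over all 9 tumours this share averaged 35.1% (16.1% to 60.9%), against 22.1% (11.6% to 54.7%) in KB1P. Chromosomes without any breakpoint averaged 9.67 ± 3.16 (SD, n = 9) per KB1(L1363P)P tumour, against 3.90 ± 3.83 (SD, n = 30) per KB1P tumour. Both comparisons are descriptions and were not tested. Both measures also depend on the total number of breakpoints, which was lower in KB1(L1363P)P, so they are not separate from it. KB1P tumours 5, 1 and 3, with 23, 30 and 34 breakpoints, had 14, 10 and 10 chromosomes without one. Their largest shares on a single chromosome were 47.8%, 20.0% and 20.6%.

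KB1P tumours also had recurrent tall gains, none of them at Met. The most frequent were 3 genes within chr1:59256861-59551204, among them the Wnt receptor gene Fzd7, and 14 genes within chr10:43456143-43947863, among them the cell surface gene Cd24a, each at high-level gain in 6 of 30 tumours. The chromosome 10 stretch also lies inside the gained interval of KB1(L1363P)P carcinosarcoma 4 that ended at Lin28b. A further 23 genes within chr8:7420552-13494535 were at this level in 5 tumours. Among listed genes, Amotl1 of the Hippo pathway and the DNA end resection gene Mre11a, neighbours on chromosome 9, were at high-level gain in 4 KB1P tumours. The ligase gene Lig4 and the tumour suppressor gene Ing1, on chromosome 8, were also at that level in 4. Pik3ca, the catalytic subunit of PI3 kinase, and Bard1, the binding partner of Brca1, were at that level in 3 each. No KB1(L1363P)P tumour had high-level gain of these 6 genes. The recurrent deep losses of KB1P included the cell cycle inhibitor gene Rb1 in 3 tumours and the epithelial adhesion gene Epcam in 2, against 0 of 9 for both. The genes of this paragraph were chosen after their values were seen, and none of these counts was tested. A change found in 2 to 4 of 30 tumours can be absent from 9 tumours at the same rate. These absences therefore do not show a difference between the groups.

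The segment values of the engineered genes were at or near the neutral state in most KB1(L1363P)P tumours. Brca1 ran from -0.02 to 0.32 in KB1(L1363P)P and from -0.49 over a median of 0.07 to 0.68 in KB1P (difference -0.09, SE 0.11, limma adjusted p = 0.842). Gain calls of Brca1 were made in 0 of 9 and 11 of 30 tumours. Trp53, the other deleted gene, also on chromosome 11, ran from -0.02 to 0.02 and from -0.49 to 0.68 (difference -0.09, SE 0.10, limma adjusted p = 0.842). A segment spans many genes and can hide a change the size of a gene or less, so the log2 ratio before segmentation was set against it. At Brca1 that ratio lay below the segment value in all 9 KB1(L1363P)P tumours, by a median difference of -0.13, in 29 of 30 KB1P tumours (-0.11), in 5 of 8 KP epithelial-rich tumours (-0.03) and in 2 of 3 spleens (-0.05). At Trp53 it lay below in all 9 KB1(L1363P)P tumours (-0.11), 29 of 30 KB1P tumours (-0.17), 7 of 8 KP epithelial-rich tumours (-0.17) and 1 of 3 spleens (0.00). This comparison was added after the other values were seen and was not tested, and a missense change leaves copy number as it is. Palb2, the partner bound by the coiled coil, ran from -0.77 to 0.58 and from -0.58 to 0.45 (difference 0.05, SE 0.12, limma adjusted p = 0.883).

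Of 28 measured genes of homologous recombination and the Fanconi pathway, 1 was lower and 0 were higher by limma. Of all 43513 genes, 2.54% were lower and 0.108% higher. The 1 lower gene of this list was Fancd2, which acts at stalled replication forks. It lies beside the tumour suppressor gene Vhl in the called run on distal chromosome 6. Fancd2 was at -0.07, 0.52, -0.67, 0.00, 0.25, -0.01, -0.86, -0.03 and -0.05 in KB1(L1363P)P tumours 1 to 9, and -0.03 to 0.99 with a median of 0.32 in KB1P. Tumours 3 and 7 had a loss and tumour 2 a gain, while KB1P had 14 gains in 30 tumours and no loss. The difference was -0.48 (SE 0.12, limma adjusted p = 0.00999), and it missed the threshold without tumour 3 or 7 (limma adjusted p = 0.0521 and 0.0778). The list's median difference was -0.14, beside -0.09 over all 43513 genes.

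Of 18 measured genes of DNA end protection, end joining, PARP function and drug efflux, 0 were called by limma. An unadjusted limma p under 0.05 was found for 3 of them, beside 5307 of all 43513 genes. Abcg2, a pump that exports several cancer drugs, had gain calls in 1 of 9 and 17 of 30 tumours (difference -0.38, SE 0.13, limma adjusted p = 0.0888). Dynll1, which limits end resection, differed by -0.28 (SE 0.11, limma adjusted p = 0.178).

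Of 20 measured Hippo pathway genes, 2 were lower and 0 higher by limma, beside 2.54% lower and 0.108% higher of all 43513 genes. Both lie in the called run on distal chromosome 6, so they are not independent events. Mob1a, the activator of the Lats kinases, was at -0.07, 0.01, -0.67, 0.00, 0.25, -0.01, -0.86, -0.03 and -0.10 in KB1(L1363P)P tumours 1 to 9, and -0.03 to 1.09 with a median of 0.32 in KB1P. Gain calls were made in 0 of 9 and 15 of 30 tumours, and loss calls in 2 and 0. The difference was -0.57 (SE 0.11, limma adjusted p = 0.00121). Vgll4, which competes with Yap1 for Tead factors, differed by -0.48 (SE 0.12, limma adjusted p = 0.0163). The call of Vgll4 was lost without KB1(L1363P)P tumour 3 or 7 (limma adjusted p = 0.073 and 0.1), without tumours titled KB1PM (0.0806) and on unsegmented log2 ratios (0.0505). Stk3 differed by 0.00 (SE 0.13, limma adjusted p = 0.996), with 1.88 in tumour 5.

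Of 24 measured genes of growth factor receptors and Ras, MAP kinase and PI3 kinase signalling, Met was the only one called, as higher. Of all 43513 genes, limma called 2.65% in either direction and 0.108% as higher. Braf differed by -0.11 (SE 0.13, limma adjusted p = 0.844). Of 22 measured cell cycle genes 0 were called by limma, and 2 had an unadjusted p under 0.05, beside 5307 of all 43513 genes. The smallest p-values there belonged to Ccnd2, a D-type cyclin, at -0.29 (SE 0.10, limma adjusted p = 0.104), and Cdkn1b, an inhibitor of cyclin-dependent kinases, at -0.33 (SE 0.11, limma adjusted p = 0.106). Of 11 measured apoptosis genes 0 were called by limma, and 1 had an unadjusted p under 0.05. That gene was Bid, which links death receptors to mitochondria, at -0.42 (SE 0.13, limma adjusted p = 0.0709). The caspase inhibitor gene Xiap was at -0.20 (SE 0.11, limma adjusted p = 0.463).

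Of 20 other tumour suppressor genes 2 were lower and 0 higher by limma, beside 2.54% lower and 0.108% higher of all 43513 genes. Both lie in the called run on distal chromosome 6, so they are not independent events. The transcription factor gene Foxp1 differed by -0.51 (SE 0.12, limma adjusted p = 0.00932), from a mean of 0.40 in KB1P to -0.11 in KB1(L1363P)P. Vhl, which marks hypoxia-inducible factors for degradation, differed by -0.48 (SE 0.12, limma adjusted p = 0.00999). Without KB1(L1363P)P tumour 7 neither gene passed (limma adjusted p = 0.0778 for both), and without tumour 3 Vhl did not (limma adjusted p = 0.0521). Of 20 measured genes of epithelial and mesenchymal identity 0 were called by limma, and 2 had an unadjusted p under 0.05. Foxa1, a pioneer factor of luminal mammary cells on chromosome 12, was at -0.75, 0.04, -0.58, -0.91, -0.87, -0.89, -0.87, -0.85 and -0.64 in KB1(L1363P)P tumours 1 to 9, and -0.86 to 0.60 with a median of -0.27 in KB1P. Loss calls of Foxa1 were made in 8 of 9 tumours, all but tumour 2, and in 13 of 30. Its difference was -0.42 (SE 0.14, limma adjusted p = 0.0713), and Snai1, a repressor of epithelial genes, differed by -0.23 (SE 0.11, limma adjusted p = 0.381). Median differences of these 7 lists ran from -0.18 for the Hippo pathway to -0.05 for cell cycle genes. An unadjusted limma p under 0.05 was found for 9 of 20 Hippo genes and 7 of 28 homologous recombination and Fanconi genes. It was also found for 5 of 24 receptor and signalling genes and 3 of 20 other tumour suppressor genes, beside 5307 of all 43513 genes. Genes of a list that share a segment are not independent.

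Of the genes that lead called runs, Ankrd9 on chromosome 12 differed by -0.56 (SE 0.16, limma adjusted p = 0.0356). Its loss calls numbered 8 of 9 and 12 of 30. The call of Ankrd9 was lost in 7 of the 39 fits that left out 1 tumour, namely KB1(L1363P)P tumour 1, 4, 6, 7, 8 or 9 or KB1P tumour 30 (limma adjusted p = 0.0503 to 0.0903). It was also lost with tumours 8 and 9 averaged (0.0661), on unsegmented log2 ratios (0.0678) and without tumours titled KB1PM (0.17). The predicted gene Gm15596, in the run around Met, differed by 2.49 (SE 0.41, limma adjusted p = 0.0011).

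**Figure D5:**
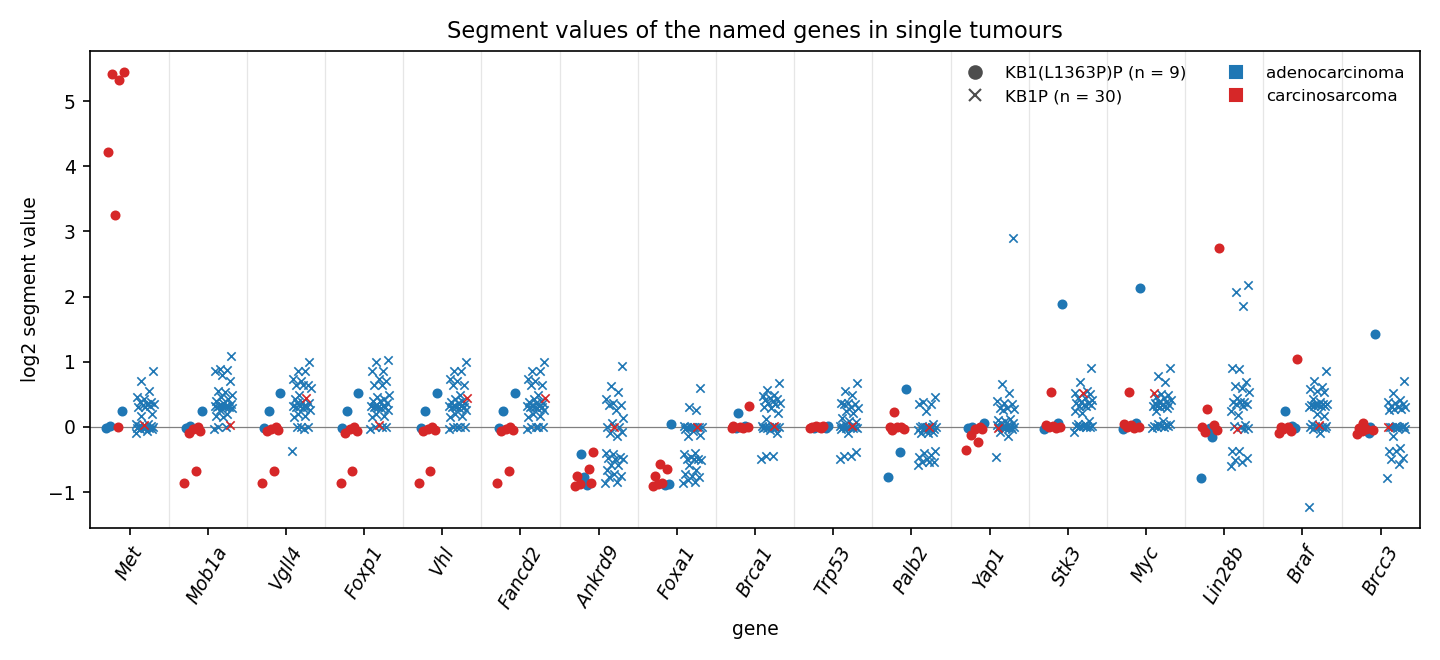
Log2 segment values of 17 named genes in single tumours, as circles for the 9 KB1(L1363P)P and crosses for the 30 KB1P tumours, with colour for histology. Met stands at 3.25 to 5.44 in 5 carcinosarcomas of KB1(L1363P)P, and the distal chromosome 6 genes Mob1a, Vgll4, Foxp1, Vhl and Fancd2 reach a loss call in KB1(L1363P)P tumours 3 and 7 only.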

How the data were processed

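Genomic DNA libraries were sequenced, aligned with BWA 0.7.17, counted in bins of 20 kb and corrected for GC content and mappability, per the labels' protocols and the submitters' processing notes, which also name cutadapt 2.5, SAMtools 1.10, Picard and build mm10. A human build appears in the protocol text, but as the tumours are from mice, positions here follow mm10. The authors deposited log2 ratios, log2 segment values and a copy score per gene, and in 99.9919% of cells the copy score was the rounded product of 2 and 2 raised to the segment value. How ratios were referenced and segmented, and how bins became genes, is not stated in these sources. Depth is unknown.

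Positions came from RefSeq genes of GRCm38.p6, matched by symbol for 32661 genes and by synonym for 30, and 10822 genes stayed without a position. Shares used all 43513 genes. For large-scale transitions, segments under 3 Mb were dropped and neighbours within 0.1 merged first. The 6 genome-wide measures and 20 chromosome means were compared by two-sided exact permutation tests over all 211915132 regroupings of the 39 tumours (fewer where tumours were left out), with Benjamini-Hochberg adjustment within each family. Segment values per gene were fitted with limma 3.58.1 (lmFit and eBayes, R 4.3.3) on the 39 tumours, and gain and loss calls were compared by Fisher's exact test, both adjusted over all genes. The threshold was an adjusted p under 0.05. Other steps used Python 3.11.15 with numba 0.67.0, matplotlib 3.10.9, NumPy 2.4.6, pandas 2.3.3 and SciPy 1.17.1, and version 1.17.8 of the R package data.table. The scripts were tested on simulated data. Replicate numbers follow the order of accession and pair nothing.

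The members, lists and tests were chosen with earlier results of these data known. Named are Brca1, Trp53 and Palb2, from each other list the called genes of largest difference (6 at most) or the 2 with the smallest p, listed genes with a segment value of 1 or more in size in a KB1(L1363P)P tumour, and the gene that leads each of up to 6 called runs on different chromosomes. In those runs listed genes come first, then named over predicted genes. Bcl2a1a, Erbb3, Akt1, Cdkn2b, Aurka, Shld3 and Abcb1a did not match a symbol of the tables used. Alternatives covered histology, epithelial content, library series, doubtful labels, noise, thresholds, scaling, other limma settings and single tumours left out. No alternative was added later.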

Additional observations from a re-analysis of the deposited data

Results flagged for a closer look

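In the 9 KB1(L1363P)P tumours, 51 values were checked for a tumour far from the other 8, by Dixon's test at its 95% critical value, and 18 were marked. Chance marks about 1 in 20 such checks, and genes or measures that share a segment are marked together. Stk3, Braf, Myc, Pvt1, Lin28b and Brcc3 were named because of a high-level gain in a KB1(L1363P)P tumour. Their marks were therefore largely set by that choice, and the 18 cannot be read against the chance rate. Adenocarcinoma 2 stood apart with an altered share of 44.6%, a lost share of 38.6%, 4 whole-chromosome changes, chromosome means of -0.69, -0.77 and -0.58 on chromosomes 3, 7 and 13, and a Foxa1 value of 0.0446, the highest of the group. Carcinosarcoma 4 stood apart in the mean of chromosome 19, 0.50, and in Lin28b, 2.74. Adenocarcinoma 6 had the lowest mean of chromosome X, -0.42, the lowest Xiap value, -0.92, and the highest Brcc3 value, 1.43. Adenocarcinoma 5 had the highest values of Stk3, 1.88, and of Myc and Pvt1, 2.13 each. Carcinosarcoma 3 had the lowest Bid value, -0.67, and the highest Braf value, 1.04. Carcinosarcoma 9 had the highest Snai1 value, 0.0589, which is close to the neutral state.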

How the results depend on the processing

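Library series and histology were the choices that changed most calls. Among adenocarcinomas only (3 against 29), the altered share differed by -15.1 points, the gained share by -15.9, breakpoints by -67.9 and large-scale transitions by -8.92, none past the exact permutation test (adjusted p = 0.296, 0.135, 0.337 and 0.135), and the lost share turned to 0.788 (adjusted p = 0.914). There Met turned to -0.13 and Gm15596 to -0.12 (limma adjusted p = 0.781 for both). Within library series 5289 (5 against 9) the same 4 measures differed by -11.0, -8.17, -26.8 and -5.80 (exact permutation adjusted p = 0.548, 0.435, 0.603 and 0.435). Breakpoints also missed the threshold without series 5490, at -89.6 (exact permutation adjusted p = 0.0516), and without the noisiest tumours (7 against 22), at -69.0 (exact permutation adjusted p = 0.104). With only segment values of more than 0.5 in size counted, the altered share differed by -3.11 points (exact permutation adjusted p = 0.443), the gained share by -5.07 (adjusted p = 0.0525) and the lost share by 1.97, the other way (adjusted p = 0.570). By the exact permutation test, called chromosomes numbered 0 among adenocarcinomas, at 90% epithelial content, in series 5289 and without series 5490, with 1, 2, 2 and 1 at an unadjusted p under 0.05, and 1 was called without tumours titled KB1PM, where chromosome 12 differed by -0.31. In those first 4 settings limma called 0 genes, 0 higher and 0 lower, with 1897, 4930, 2187 and 2269 at an unadjusted p under 0.05. Limiting segment values to -1 to 1 left 0 genes higher, and Met then differed by 0.38 (limma adjusted p = 0.0528). Fisher's exact test called 0 genes in place of 1154.

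Leaving out single tumours gave differences of -26.5 to -21.4 points in the altered share, -16.3 to -14.7 in the gained share, -10.4 to -6.02 in the lost share, -88.6 to -77.2 in breakpoints and -9.97 to -8.85 in large-scale transitions. The lost share passed only without KB1(L1363P)P tumour 2. Called chromosomes then numbered 0 to 2, with 0 without KB1(L1363P)P tumour 7 and 1 without tumour 4, 6 or 8. Called genes numbered 526 to 2052, higher ones 45 to 49 and lower ones 481 to 2003. The count moved by over 1.5 times without KB1(L1363P)P tumour 7 (526) or 2 (1872) and without KB1P tumour 1, 14, 19 or 29 (1914, 1894, 2052 and 1976). Met passed in each of these 39 fits, at 2.11 to 2.79. Over the other planned settings, called genes ran from 855 without KB1PM titles to 1611 with all 4 genotypes in the fit. With library series as a random block, 1156 genes were called, and the estimated correlation within series was -5.59e-05.

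No paired analysis was possible because the replicate numbers only follow the order of accession and the labels pair no tumours across the groups. The unknown depth, the noise of the log2 ratios and the unknown share of tumour cells limit what a segment value near a call threshold shows. With 3 KB1(L1363P)P adenocarcinomas and 1 KB1P carcinosarcoma, genotype and histology can be separated only in part.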

Other observations

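A wider count took in smaller shifts together with called genes. Segment values of more than 0.1 in size covered 31.7% ± 10.2 (SD, n = 9) of the genes in KB1(L1363P)P tumours, and 54.8% ± 20.3 (SD, n = 30) in KB1P tumours. The 3 KB1(L1363P)P adenocarcinomas had 40.1% ± 9.20 (SD, n = 3) and the 6 carcinosarcomas 27.5% ± 8.25 (SD, n = 6). The KB1P carcinosarcoma was at 5.63%, the lowest of the 39 tumours. Between the groups this share differed by -23.1 points, near the -22.8 points of the altered share, whose genes it includes. It therefore does not show more small uncalled shifts in KB1P.

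Deep losses of KB1(L1363P)P tumours lay in carcinosarcoma 8, at chr14:98922573-121283744 down to -1.54, and in adenocarcinoma 6, at chrX:57383348-63035345 down to -1.01. In KB1P the most extreme was -3.69, at chr13:63300484-63573460 in tumour 18, where the interval starts at Mir23b. Tumour 21 reached -2.72 at chr8:88521342-91313291. KB1P tumours 2, 9 and 30 shared a deep loss at chr1:193475290-194816869, whose only protein-coding gene is Plxna2, a receptor for semaphorins. The tallest KB1P gain was 4.34 at chr9:39217359-42209231 in tumour 25.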
